A study of Mus musculus with 4 samples.

Results

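Nppa encodes the precursor of atrial natriuretic peptide, a hormone that the adult heart makes mainly in the atria and that ventricular cardiomyocytes switch back on under load or injury. Together with Nppb, the gene of the B-type natriuretic peptide, and with fetal isoforms of contractile proteins such as Acta1 and Myh7, it belongs to the fetal gene programme that marks stressed cardiomyocytes, and after an infarct it is best known from the border zone. The question here was what accompanies Nppa in spots that hold little collagen transcript.

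The data were spatial transcriptomes (10x Visium) of the adult mouse heart after myocardial infarction. Frozen sections came from the hearts of 12-week-old female ICR mice with the LAD, the coronary artery that feeds the front of the left ventricle, tied off for good, taken 1, 4, 7 or 14 days after surgery, with 1 section of 1 mouse at each day. All 4 mice were ligated, and no section of a sham-operated or untouched heart was analysed here, so that the day of sampling and the individual animal cannot be told apart. A Visium spot is a small area of tissue that can hold several cells of different types or parts of them, and its transcripts are counted as unique molecular identifiers (UMIs).

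Spots were chosen by their own counts. Of 9102 deposited spots, 7424 had a share of hemoglobin (Hba-, Hbb-) UMIs of at most 1% and 500 or more UMIs. In each section the 50% of these spots with the lowest share of Col1a1, Col1a2 and Col3a1 formed the collagen-low set, 3712 spots in all. Within it, the 10% of spots with the highest Nppa share were called Nppa-high and the 50% with the lowest were called Nppa-low. This gave 372 Nppa-high and 1856 Nppa-low spots, with 94, 84, 92 and 102 Nppa-high spots and 471, 418, 458 and 509 Nppa-low spots in the sections of days 1, 4, 7 and 14. The remaining 1484 spots were kept as a middle class.

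The Nppa level that defined the spots lay in very different ranges in the 4 sections, and these values describe the choice of spots and are not a result. The Nppa-high spots held 3650 Nppa UMIs per 1000000, 6601, 976 and 164 on days 1, 4, 7 and 14, against 0, 250, 0 and 0 in the Nppa-low spots. The median Nppa-high spot had 14, 43, 4 and 1 Nppa UMIs on days 1, 4, 7 and 14. Just inside and just outside the limit of the Nppa-high class, the Nppa share was 13.3 and 13.1 per 10000 UMIs on day 1, 18.3 and 18.2 on day 4, and 4.18 and 4.16 on day 7. On day 14 the limit fell at 0, since 100 of the 1018 collagen-low spots had any Nppa UMI and 75 of them had exactly 1. The Nppa-high spots of day 14 were therefore hardly more than the spots in which the gene was seen at all. Of them, 2 entered by the ordering of ties. All 407 middle and 509 Nppa-low spots of day 14 held 0 Nppa UMIs, so only the ordering of ties by barcode parted these classes. The middle class also held 8 spots without any Nppa UMI on day 1 and 35 on day 7.

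The collagen-low set held a minor part of the Nppa transcript of each section. It carried 17.7% of the Nppa UMIs of the kept spots, 9.67%, 8.17% and 6.83% on days 1, 4, 7 and 14. The collagen share itself ended at 6.68 per 10000 UMIs, 15.9, 17.0 and 4.51 on days 1, 4, 7 and 14, and spots above these values belonged to the collagen-high set. Within the collagen-low set the 3 collagens stood at 470 UMIs per 1000000 in Nppa-high against 298 in Nppa-low spots, 1076 against 728, 1139 against 791 and 233 against 239 on days 1, 4, 7 and 14.

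Depth differed little between the classes of the collagen-low set. The median UMI count per spot was 6803 in Nppa-high against 6281 in Nppa-low spots, 9838 against 9585, 6160 against 5262 and 9035 against 9189 on days 1, 4, 7 and 14. Shallow spots were more frequent among the Nppa-high spots of day 1, where the 5th percentile was 1398 UMIs against 3805. The sections share slide positions, and 1332 of 3178 barcodes occur in all 4 files, as barcodes mark positions on the slide.

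The regulatory sequence of Nppa and of Acta1 is shown because these genes stand for the fetal programme at its natriuretic and its contractile end. Both are the 250 bases before the gene start on the coding strand, from RefSeq on GRCm38.p6, with Nppa at chr4:148000472-148000721 on the plus strand and Acta1 at chr8:123894776-123895025 on the minus strand. Capitals mark matches, on either strand, to GATAA (GATA factors), AAGTG (NK homeobox factors), GTGTGA (T-box factors), CATTCC (the MCAT element of TEAD factors) and the CArG box of serum response factor.
Nppa: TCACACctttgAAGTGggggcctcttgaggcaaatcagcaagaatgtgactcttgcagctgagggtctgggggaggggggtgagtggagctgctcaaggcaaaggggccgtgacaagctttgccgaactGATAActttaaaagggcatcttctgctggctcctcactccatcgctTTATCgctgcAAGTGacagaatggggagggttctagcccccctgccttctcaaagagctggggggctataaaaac
Acta1: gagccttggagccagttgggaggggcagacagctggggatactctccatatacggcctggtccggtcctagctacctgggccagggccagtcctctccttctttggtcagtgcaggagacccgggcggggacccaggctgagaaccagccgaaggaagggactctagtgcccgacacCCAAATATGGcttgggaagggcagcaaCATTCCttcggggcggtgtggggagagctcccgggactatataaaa
The Nppa window held 2 GATAA matches, beginning 121 and 75 bases before the start, 2 AAGTG matches at 239 and 65 bases, and 1 GTGTGA match at 250 bases. The Acta1 window held 1 CArG box at 73 bases and 1 CATTCC match at 46 bases. In the corresponding windows of Nppb and Ankrd1, which overlap exons of longer GENCODE transcripts and are not printed, Nppb held 1 CATTCC and 2 GATAA matches and Ankrd1 held 2 CATTCC, 1 GATAA and 1 GTGTGA match. Of 32851 mouse promoter windows of this length, 22.6% held GATAA, 40.7% AAGTG, 12.3% GTGTGA, 12.6% CATTCC and 1.47% a CArG box. No entry was found for Clu. A match describes letters and is no evidence of binding.

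The plot of spot shares shows Nppa beside genes that took no part in the choice of spots. In it each point is a share per 10000 UMIs of 1 spot. In the text, a level is given as counts per 1000000 UMIs (CPM) of all spots of a class in a section, with the 4 genes of the rule and the hemoglobin genes left out of the totals. With 1 section per day there is no replicate error for a single day, and the intervals given for a day are exact 95% intervals that cover counting error only.

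**Figure D1:**
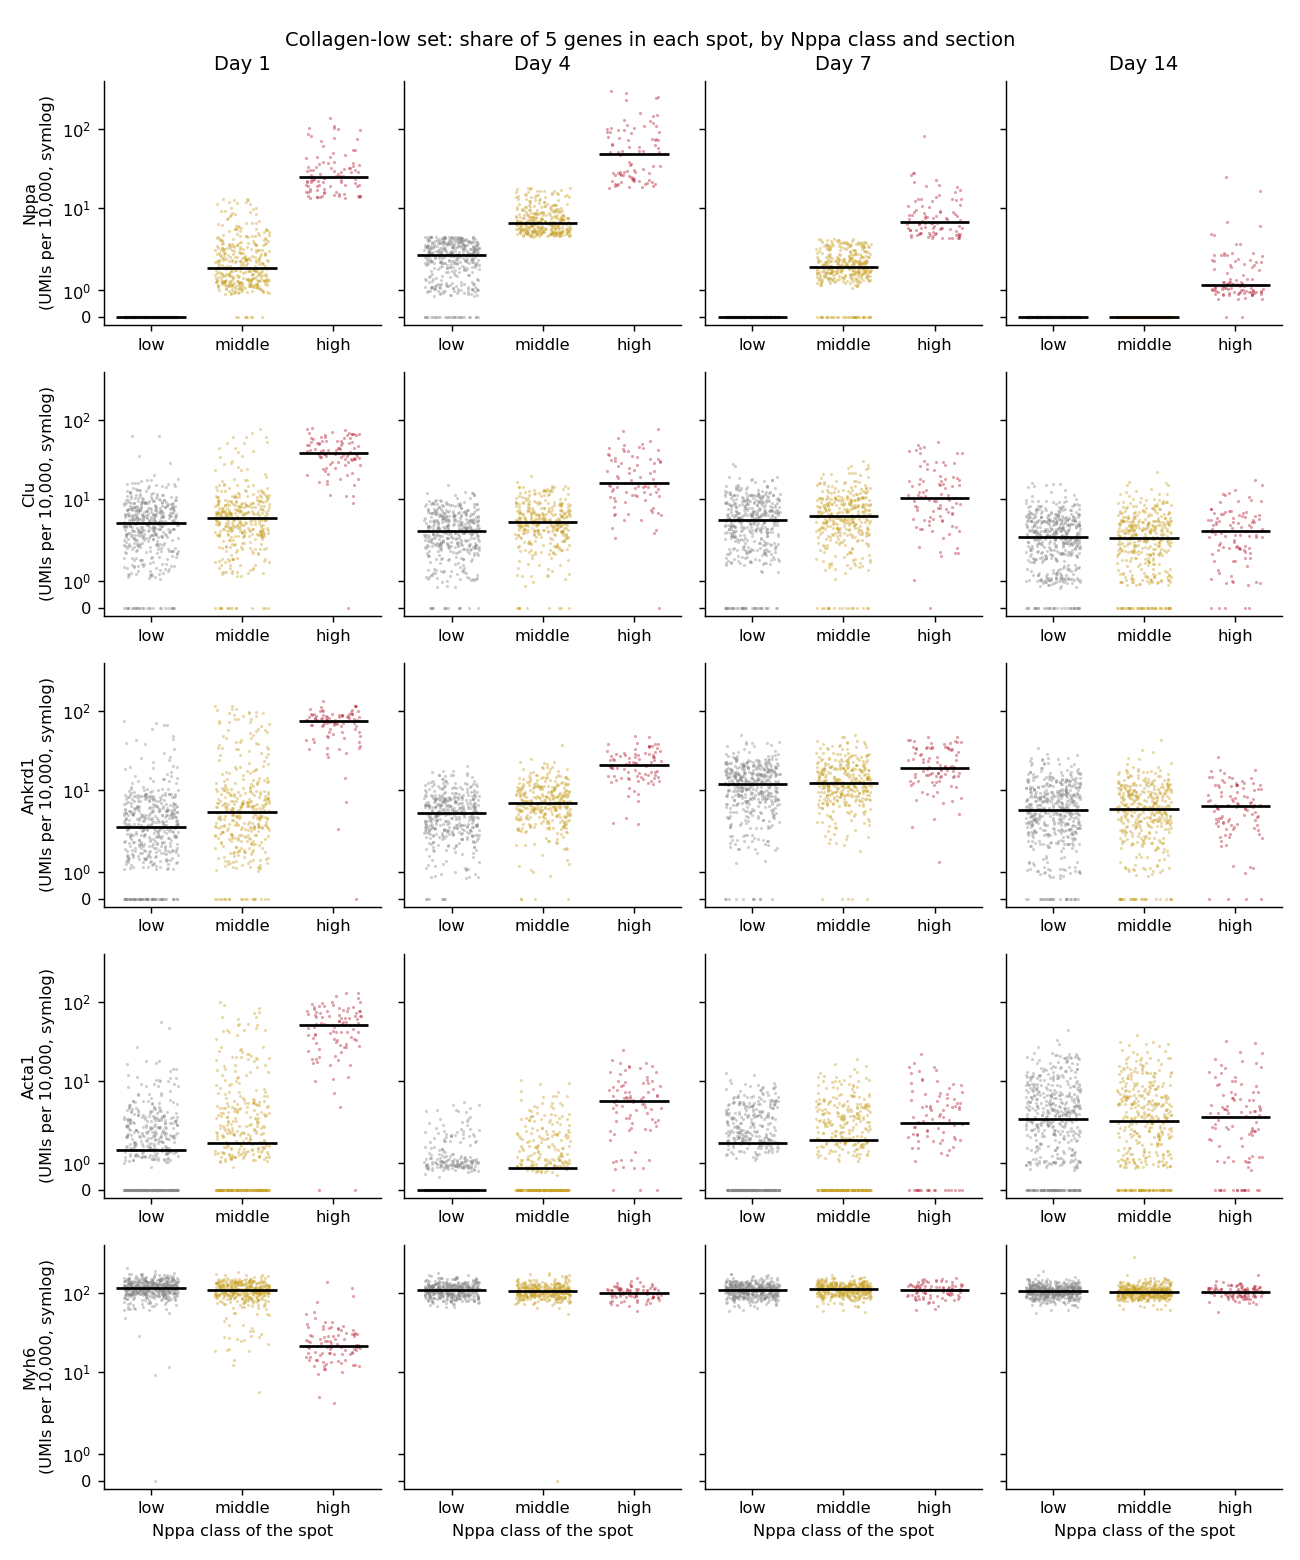
Share of Nppa, Clu, Ankrd1, Acta1 and Myh6 in each spot of the collagen-low set (UMIs per 10,000, symmetric log scale), by Nppa class (x axis) and section (columns); each point is 1 spot and the black line is the class median. Nppa parts the classes by the choice of spots. In Clu, Ankrd1, Acta1 and Myh6 the Nppa-high spots stand apart from the Nppa-low spots on day 1. On day 4 they do so in Clu, Ankrd1 and Acta1 but hardly in Myh6. On day 7 they do so less in Clu, Ankrd1 and Acta1 and not in Myh6. On day 14 the classes overlap in all of these genes.

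The Nppa-high spots differed from the Nppa-low spots of the same set far more on day 1 than later. Among the 1794 genes with 200 or more UMIs in the 2 classes of day 1, 365 (20.3%) were at least 2-fold higher and 198 (11%) at least 2-fold lower in Nppa-high spots. On day 4 these counts were 20 (0.975%) and 1 (0.0487%) of 2052 genes, on day 7 they were 5 (0.343%) and 1 (0.0686%) of 1457, and on day 14 no gene of 2266 passed in either direction (0%). The median log2 ratio over all these genes was 0.12 on day 1, 0.05 on days 4 and 7, and -0.01 on day 14. On day 1 the split depended on the scaling. With TMM factors, another scaling of the totals, 201 genes were higher and 410 lower, and the median moved from 0.12 to -0.26.

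**Figure D2:**
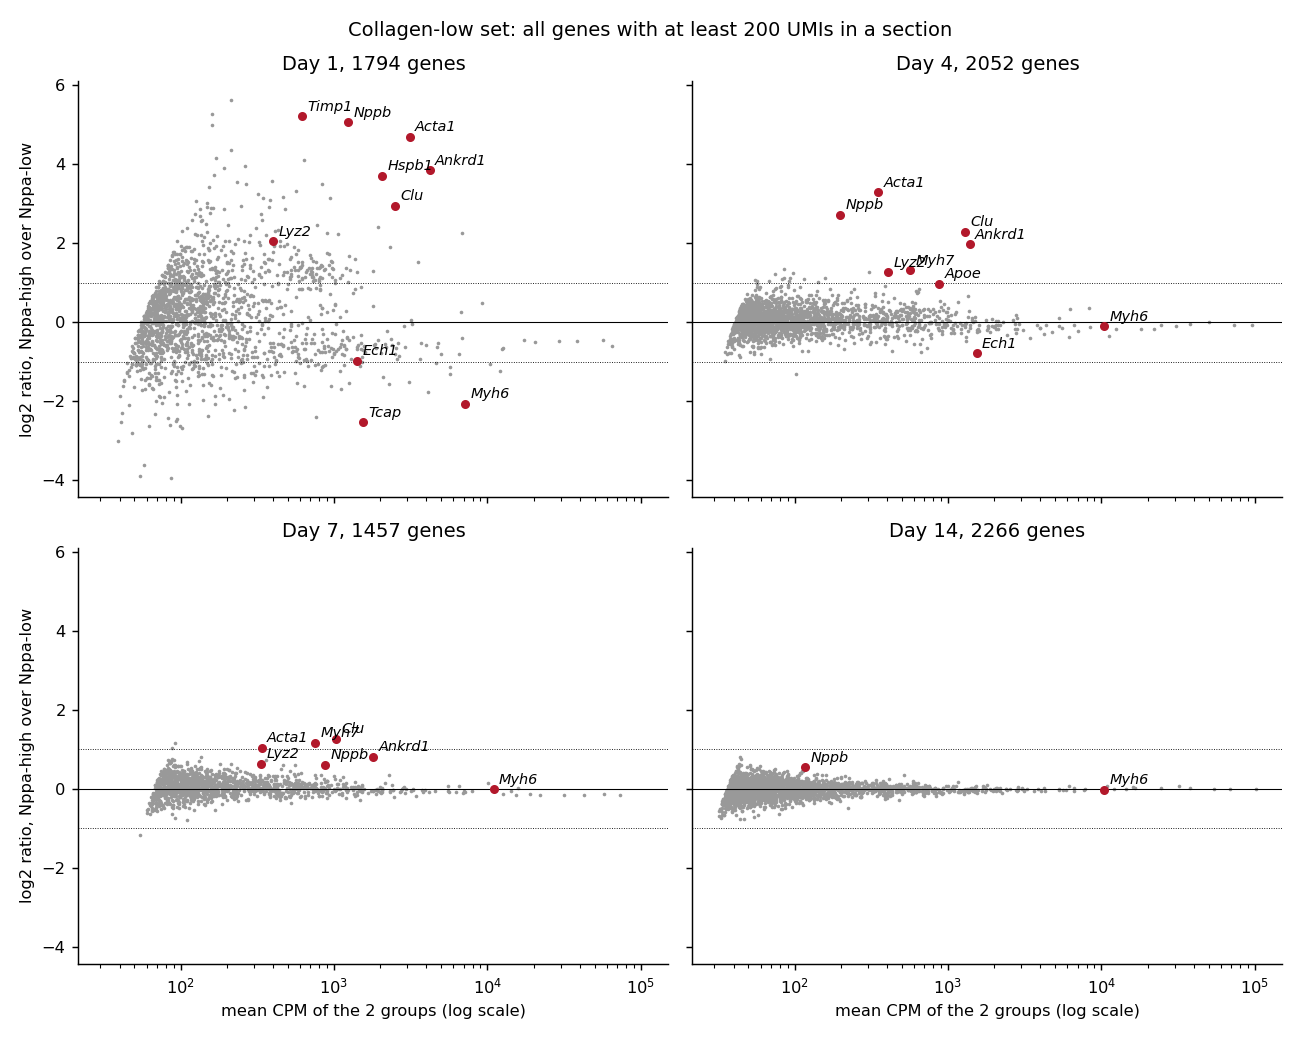
Log2 ratio of CPM, Nppa-high over Nppa-low spots of the collagen-low set (y axis), against the mean CPM of the classes (x axis, log scale), for every gene with 200 or more UMIs in the section; dotted lines mark a 2-fold difference and named genes are red. The cloud is wide on day 1 and narrow on days 4, 7 and 14, with Acta1, Nppb, Clu and Ankrd1 standing out of it on day 4.

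Genes of cardiomyocyte stress were higher in the Nppa-high spots of days 1, 4 and 7, by less on each later day. Of the 20 genes of this list, 15 reached 200 UMIs on day 1. Of these, 12 were at least 2-fold higher in Nppa-high spots, when 20.3% of all genes were. None was 2-fold lower, and the median log2 ratio was 2.95. On day 4, 5 of 14 were at least 2-fold higher, when 0.975% of all genes were, with a median of 0.59. On day 7, 3 of 14 were, when 0.343% of all genes were, with a median of 0.29. The median over all genes was 0.05 on both days. On day 14 none of 15 was 2-fold higher and the median was 0.06, close to that of all genes. The stress list, like the other lists, was chosen with earlier results of these data known. Its counts therefore describe the listed genes and are not independent support.

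Nppb lies beside Nppa on chromosome 4 and is the closest relative in function. It stood at 2395 CPM in Nppa-high against 71.5 in Nppa-low spots, at 343 against 51.9, at 1051 against 688 and at 140 against 95.1 on days 1, 4, 7 and 14. It was higher in Nppa-high spots in all 4 sections, but the ratio shrank from a log2 of 5.07 (4.86 to 5.28) on day 1 and 2.72 (2.46 to 2.99) on day 4 to 0.61 (0.47 to 0.75) on day 7 and 0.55 (0.26 to 0.84) on day 14. On day 7 Nppb was also abundant in spots without any Nppa UMI, as 415 of 458 Nppa-low spots of that day held a Nppb UMI, against 137 of 471 on day 1.

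Ankrd1 encodes a stress-induced ankyrin repeat protein that binds titin in the sarcomere. Its level was 7868 CPM in Nppa-high against 549 in Nppa-low spots, 2211 against 561, 2303 against 1305 and 737 against 706 on days 1, 4, 7 and 14. In single spots, 90 of 94 Nppa-high spots of day 1 and 74 of 84 of day 4 lay above the 95th percentile of the Nppa-low spots, against 31 of 92 on day 7 and 4 of 102 on day 14. The last count is no higher than the percentile itself gives.

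Acta1, the skeletal muscle actin of the fetal heart, had the highest ratio of the list on day 4. It stood at 5999 CPM against 232, at 639 against 65.3, at 454 against 221 and at 566 against 520 on days 1, 4, 7 and 14. The log2 ratio was 4.69 (4.57 to 4.81), 3.29 (3.08 to 3.51), 1.04 (0.82 to 1.26) and 0.12 (-0.02 to 0.26). In the Nppa-low spots Acta1 was lowest on day 4 and highest on day 14, and the smaller contrast of day 14 went with a higher Nppa-low level.

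Clu encodes clusterin, a secreted chaperone. It was at 4391 CPM against 568, 2158 against 440, 1450 against 603 and 449 against 376 on days 1, 4, 7 and 14. The Nppa-high level was lower in each later section, whereas the Nppa-low level stayed between 376 and 603. Clu was above the 95th percentile of Nppa-low spots in 89 of 94, 68 of 84, 35 of 92 and 11 of 102 Nppa-high spots.

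Myh7, the slow myosin heavy chain of the fetal ventricle, did not follow this order. On day 1 it was at 370 CPM in Nppa-high and 341 in Nppa-low spots, a log2 ratio of 0.12 (-0.10 to 0.33) that turned to -0.26 with TMM factors. It was at 810 against 326 on day 4, at 1037 against 462 on day 7 and at 304 against 276 on day 14. The contrast was thus confined, among these sections, to days 4 and 7, with log2 ratios of 1.31 (1.18 to 1.45) and 1.16 (1.02 to 1.31). Mhrt, an antisense gene, overlaps Myh7, and the strand setting of the counting is not given in the sources used here.

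Other stress genes were high in the Nppa-high spots of day 1 but not of day 4. Xirp2, whose product sits at intercalated discs, had 1025 CPM against 103 on day 1 and 126 against 107 on day 4, and Flnc, which encodes an actin crosslinker, had 1693 against 193 and 97.6 against 120. Sprr1a, a small proline-rich protein gene, was seen with 139 UMIs in Nppa-high and 5 in Nppa-low spots on day 1, and with 2 and 15 on day 4. Des, the gene of the intermediate filament desmin, was intermediate, with 3651 against 982 CPM on day 1 and 1089 against 790 on day 4. Mybpc2, a myosin-binding protein of fast muscle, was rare but higher on days 1, 4 and 7, at 43.4 against 10.2, 17.8 against 5.14 and 21.2 against 7.89 CPM, and at 10.8 against 11.1 on day 14.

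**Figure D3:**
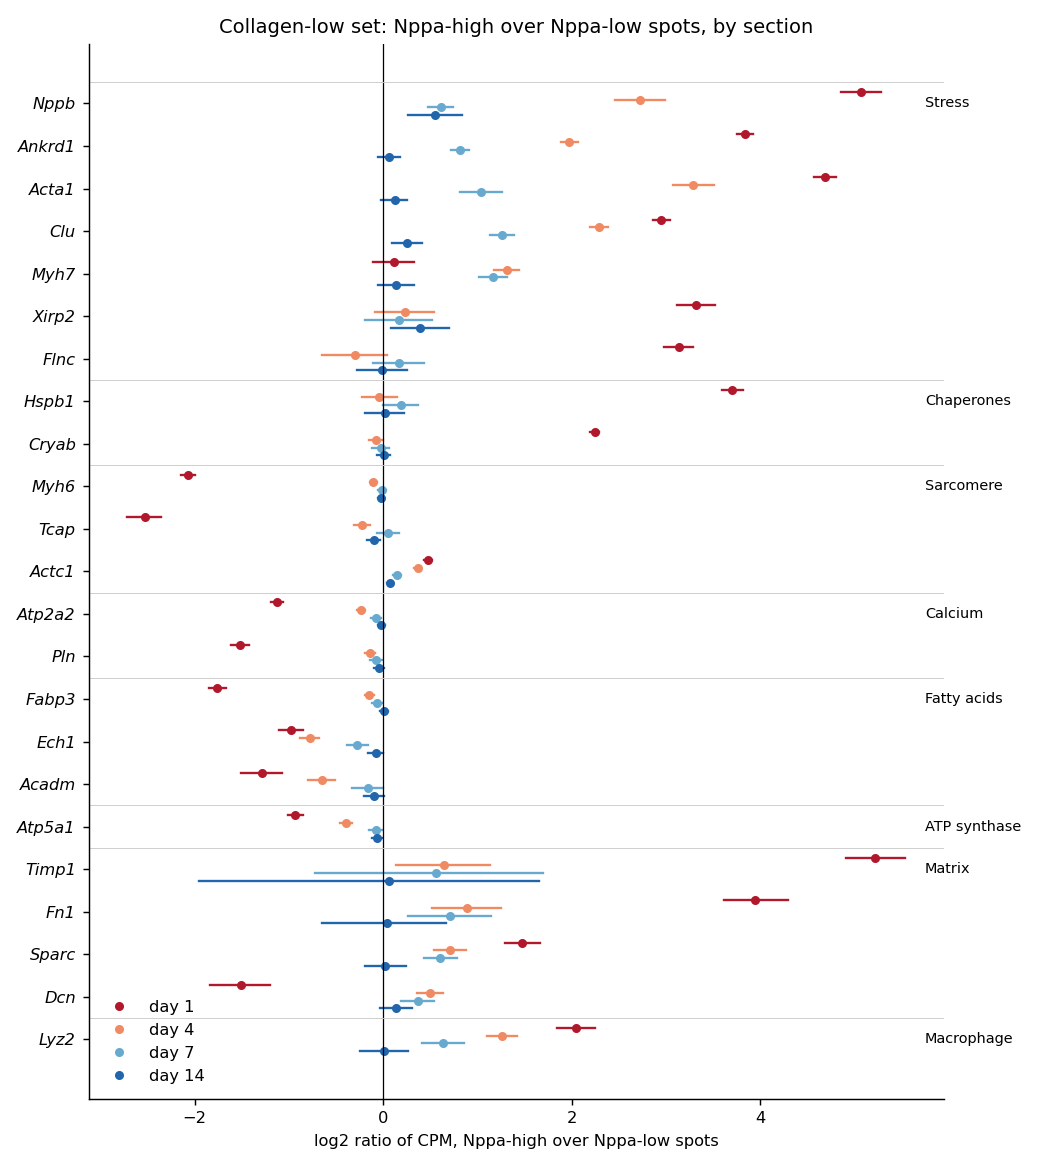
Log2 ratio of CPM, Nppa-high over Nppa-low spots of the collagen-low set (x axis), for 23 genes (y axis, grouped by role) in the 4 sections (colours); bars are exact 95% intervals for counting error only. Clu, Ankrd1, Acta1 and Nppb order from day 1 to day 14, Myh7 stands out on days 4 and 7 only, and chaperone, sarcomere and calcium genes leave 0 mainly on day 1.

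Some chaperone genes were higher on day 1. Of 7 measured genes of the heat shock list, 3 were at least 2-fold higher on day 1, when 20.3% of all genes were, and none on days 4, 7 and 14. The median log2 ratio was 0.64 on day 1, against 0.12 over all genes, and 0.09, 0.01 and 0.02 later. Hspb1 was at 3830 CPM in Nppa-high and 293 in Nppa-low spots on day 1, and at 338 against 347, 539 against 473 and 245 against 242 on the later days. Cryab, which encodes a small heat shock protein of muscle, was at 11340 against 2392 on day 1 and at 2058 against 2170 on day 4. Immediate early genes, none of which reached 200 UMIs, summed to 533 CPM against 115 on day 1 and to 108 against 84.2 on day 4.

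Most adult contractile transcripts were lower in the Nppa-high spots of day 1, and as a list they were nearly level afterwards. Myh6, the fast myosin heavy chain of the adult mouse ventricle, was at 2744 CPM in Nppa-high against 11502 in Nppa-low spots, at 10090 against 10837, at 10908 against 11009 and at 10336 against 10513 on days 1, 4, 7 and 14. None of the 94 Nppa-high spots of day 1 lay above the 95th percentile of Nppa-low spots in Myh6. On days 4, 7 and 14 it was 1 of 84, 6 of 92 and 2 of 102, so this count hardly parts day 1 from days 4 and 14. Tcap, which encodes the titin cap telethonin, was at 457 against 2638 CPM on day 1 and 1461 against 1707 on day 4. The list was not uniform, since Actc1, the cardiac actin, was higher in Nppa-high spots of every section, at 10708 against 7704, 9368 against 7255, 10666 against 9615 and 11229 against 10675. With TMM factors this direction held, with log2 ratios of 0.10, 0.26, 0.06 and 0.08 on days 1, 4, 7 and 14. Of the 13 sarcomere genes, 3 were at least 2-fold lower on day 1, when 11% of all genes were, and none passed on the other days. Of the 13, 4 lay above 0 on day 1 and 8 on day 4, with median log2 ratios of -0.39 and 0.11.

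Calcium handling followed the contractile genes. Of 9 measured genes 5 were at least 2-fold lower on day 1, when 11% of all genes were, with a median log2 ratio of -1.11. None passed on the later days, where the medians lay between -0.07 and -0.05. Atp2a2, the calcium pump of the sarcoplasmic reticulum, was at 3594 CPM against 7840 on day 1 and at 6495 against 7632 on day 4. Pln, its inhibitor phospholamban, was at 1603 against 4594 and at 3766 against 4145. Among channel genes, Kcnip2, a subunit of the transient outward current, was at 17.4 against 108 CPM on day 1 and 134 against 125 on day 4. Kcnd2, a pore subunit of the same outward current, was lower in all 4 sections, on 4, 11, 4 and 12 UMIs in Nppa-high spots.

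Genes of fatty acid use were lower in Nppa-high spots on day 1 and, by less, on day 4. Of 17 measured genes 11 were at least 2-fold lower on day 1, when 11% of all genes were. None was above 0, and the median log2 ratio was -1.22. On day 4 none of 18 passed 2-fold, but 17 of 18 lay below 0, with a median of -0.40 against 0.05 for all genes. The medians were -0.05 on day 7 and -0.07 on day 14.

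The largest of these day 4 differences were in enzymes of the mitochondrial oxidation cycle. Ech1, an isomerase for unsaturated fatty acids, was at 1130 CPM in Nppa-high and 1939 in Nppa-low spots on day 4, after 959 and 1882 on day 1, and at 1339 and 1617 on day 7 and 1693 and 1786 on day 14. Acaa2, the thiolase that closes the cycle, was at 493 against 836 on day 4, and Acadm, the medium-chain dehydrogenase, at 568 against 891. Fabp3, the fatty acid carrier of the cytosol, was at 1878 against 6358 on day 1 but at 5291 against 5857 on day 4.

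Nuclear genes of the respiratory chain were lower by less. All 16 lay below 0 on day 1, with a median log2 ratio of -0.81 against 0.12 for all genes. Of the 16, 2 were beyond 2-fold, a share near the 11% of all genes. On day 4, 15 of 16 lay below 0, with a median of -0.20 against 0.05 for all genes. Transcripts of the mitochondrial genome made up 213945 CPM in Nppa-high against 305818 in Nppa-low spots, 354461 against 372611, 268768 against 296511 and 362104 against 358270 on days 1, 4, 7 and 14. The sum of the glycolysis genes differed by less, with 10029 CPM against 11636 on day 1. Of 15 measured genes of this list, 8 lay above 0 on day 1. At least 2-fold higher were 3 of the 15, a share near the 20.3% of all genes. At least 2-fold lower were 4, when 11% of all genes were. Some broadly expressed forms were higher on day 1. Eno1 was at 224 CPM against 53.8, Pfkp at 179 against 47.5 and Pgam1 at 233 against 79.3. The glucose transporter Slc2a1, at 88.6 against 19.3 CPM, had too few UMIs to be among the measured genes. Some muscle forms were lower, with Eno3 at 471 against 1439, Pfkm at 248 against 634 and Slc2a4 at 85.1 against 329. On day 4 only Pfkp of the genes named here, at 76.1 against 36.9, was still 2-fold apart. Whether the list parted by type of isoform was not tested.

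**Figure D4:**
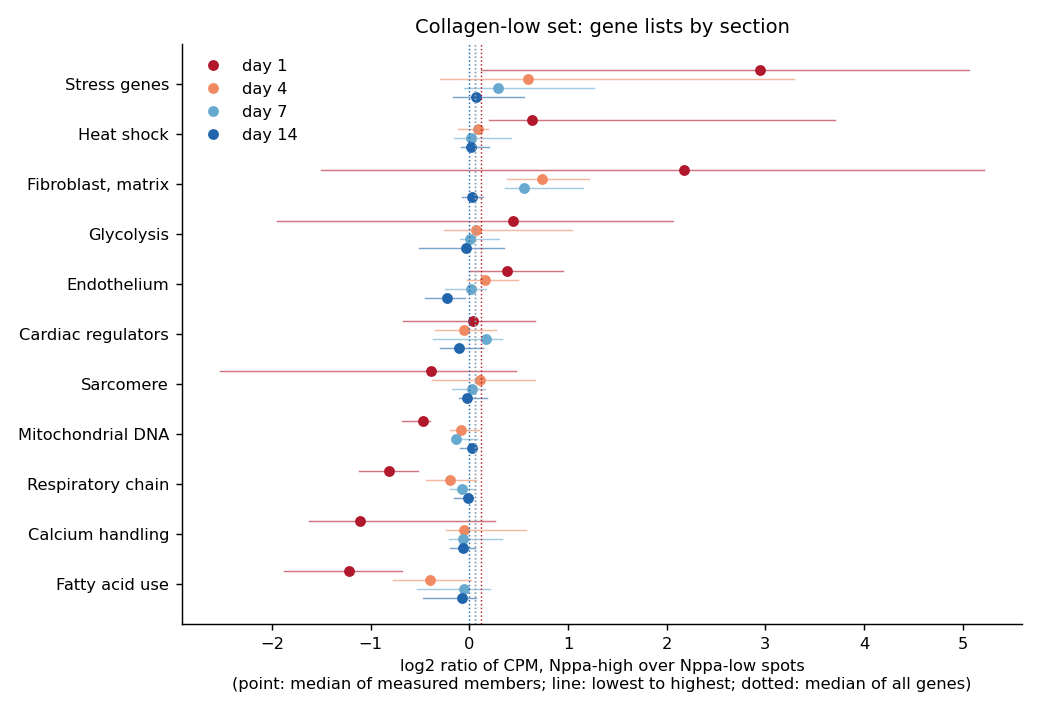
Median log2 ratio of CPM, Nppa-high over Nppa-low spots of the collagen-low set (x axis), for 11 gene lists (y axis) in the 4 sections (colours), over members with 200 or more UMIs; thin lines run from the lowest to the highest member and dotted lines mark the median of all genes. Stress and matrix lists lie to the right and fatty acid, calcium and respiratory lists to the left on day 1, and fatty acid genes remain to the left on day 4.

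Of 4 ventricular markers, only 2 reached 200 UMIs in a section. These, Myl2 and Myl3, were abundant in both classes but lower in the Nppa-high spots of day 1. Their log2 ratios were -1.06 and -0.80 on day 1 and -0.36 and -0.07 on day 4. Myl2, the ventricular myosin light chain, was at 6699 CPM in Nppa-high against 13957 in Nppa-low spots, 9783 against 12555, 13906 against 14540 and 12093 against 12153 on days 1, 4, 7 and 14. Of the 8 atrial genes none reached 200 UMIs in any section, the list summed to between 17.4 and 67.1 CPM in Nppa-high spots, and Myl7, Sln and Bmp10 had no UMI there in any section. Conduction genes, none of which reached 200 UMIs, summed to 34.7 CPM in both classes on day 1, to 28.6 against 26.4 on day 4, to 51.2 against 27.4 on day 7 (log2 ratio 0.90, 0.22 to 1.55) and to 50.9 against 36.1 on day 14. No spot of the collagen-low set held 10 or more UMIs of fast skeletal muscle genes.

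Of the cardiac transcription factors known to act on natriuretic peptide genes, none of the 3 to 7 that reached 200 UMIs in a section passed 2-fold, and their medians were 0.04, -0.05, 0.17 and -0.11 on days 1, 4, 7 and 14. In the fit over the 4 sections 3 of 13 lay above 0, with a median log2 fold change of -0.22 against 0.01 over all genes, and none was called. Mef2c, a MADS-box factor, was the lowest there at -0.57, and Rest was the highest at 0.85. Gata4, under 200 UMIs on both days, was at 31.3 against 43.6 CPM on day 1 and 38.1 against 34.7 on day 4. Nkx2-5 was at 50.4 against 64.6 and 33.3 against 42.6. Corin, which encodes the protease that activates the Nppa product, was at 48.6 against 86.9 on day 1 and at 92.8 against 106, 77.7 against 78.9 and 67.1 against 68.3 later.

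The spots had been described as uninjured myocardium, and on day 1 their transcripts go against that name. Transcripts of other cells and of matrix moved with Nppa in spite of the collagen limit. The 12 fibroblast and matrix genes summed to 5183 CPM in Nppa-high against 1538 in Nppa-low spots, 2840 against 1791, 2873 against 2001 and 1266 against 1218 on days 1, 4, 7 and 14. The 8 macrophage genes summed to 1157 against 283, 857 against 389, 630 against 449 and 251 against 259 on days 1, 4, 7 and 14. The 4 neutrophil genes summed to 368 and 17.0 on day 1 and to at most 12.4 CPM in Nppa-high spots of the other days.

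The matrix list was not uniform on day 1. Of its 8 measured genes, 5 were at least 2-fold higher in Nppa-high spots, when 20.3% of all genes were. Only these 5 lay above 0. At least 2-fold lower was 1 of the 8, when 11% of all genes were. Genes induced by injury were among the higher ones on day 1, and Dcn was the one at least 2-fold lower. Timp1, an inhibitor of matrix proteases, was at 1209 CPM against 32.5, Ccn2, a matricellular growth factor, at 1204 against 70.5, and Fn1, the gene of fibronectin, at 492 against 31.8. Dcn, the proteoglycan of resident fibroblasts, was at 155 against 440 on day 1, but at 682 against 481 on day 4 and 618 against 478 on day 7. Lyz2, a lysozyme gene of macrophages, was at 643 against 155, 576 against 241, 406 against 261 and 165 against 163. Endothelial and mural genes differed by less. Endothelial genes summed to 1079 CPM against 901, 1084 against 903, 1155 against 1070 and 858 against 986 on days 1, 4, 7 and 14, and mural genes to 320 against 359, 529 against 357, 523 against 482 and 331.3 against 331.3. Endocardial genes were at 74.7 against 51.8, 70.2 against 38.7, 77.7 against 44.5 and 31.4 against 30.2 CPM. Mesothelial genes stayed at or under 14.1 CPM in Nppa-high spots of every section, and adipocyte genes were at 64.3 against 13.4 CPM on day 1 and at or under 16.7 later. Skeletal muscle genes were at 104 against 91.0 CPM on day 7 and at or under 3.47 in Nppa-high spots of the other days. The part of these cells in the results was not tested. In mixed spots, more cells of a type and more RNA per cell cannot be told apart.

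A further comparison, added after these values were seen, kept only those collagen-low spots with the lower share of the fibroblast, macrophage and neutrophil lists, 50% of them in each section, and ranked Nppa again within them. None of the 94 Nppa-high spots of day 1 belonged to this quieter set, against 9 of 84 on day 4, 21 of 92 on day 7 and 39 of 102 on day 14. Its own Nppa-high spots held 370 Nppa UMIs per 1000000, 1520, 610 and 89.6 on days 1, 4, 7 and 14. On day 1 no gene with 200 or more UMIs in the new classes was 2-fold apart between them. Clu was then at 488 CPM in Nppa-high and 529 in Nppa-low spots, Ankrd1 at 468 and 467, Acta1 at 147 and 211, Hspb1 at 264 and 279 and Myh6 at 11486 and 11567. The stress contrast of day 1 was not seen among these spots. The cut had removed all 94 Nppa-high spots of that day, so the comparison cannot show what went with Nppa in them. Per 1000000 UMIs, the middle class of the whole collagen-low set held 252 Nppa UMIs on day 1 and its Nppa-high class 3650.

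On day 4 Ankrd1, Acta1, Nppb, Clu and Myh7 kept their direction in the quieter set. Ankrd1 was at 1079 CPM against 499, Acta1 at 200 against 66.2, Nppb at 148 against 40.7, Clu at 713 against 426 and Myh7 at 496 against 308. Their log2 ratios were 1.11 (0.95 to 1.27), 1.59 (1.19 to 1.99), 1.86 (1.38 to 2.34), 0.74 (0.55 to 0.93) and 0.68 (0.46 to 0.91), each smaller than in the whole collagen-low set. Xirp2, at 101 against 114 CPM, and Flnc, at 114.4 against 113.5, turned the other way there, both with intervals that included 0. Lyz2 was at 200 against 182 CPM. On day 7 Acta1 was at 370 against 176 and Myh7 at 617 against 430, while Clu, at 682 against 576, had an interval that reached 0. Because the 3 lists include genes that injured tissue induces, the quieter set was not chosen independently of these genes.

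**Figure D5:**
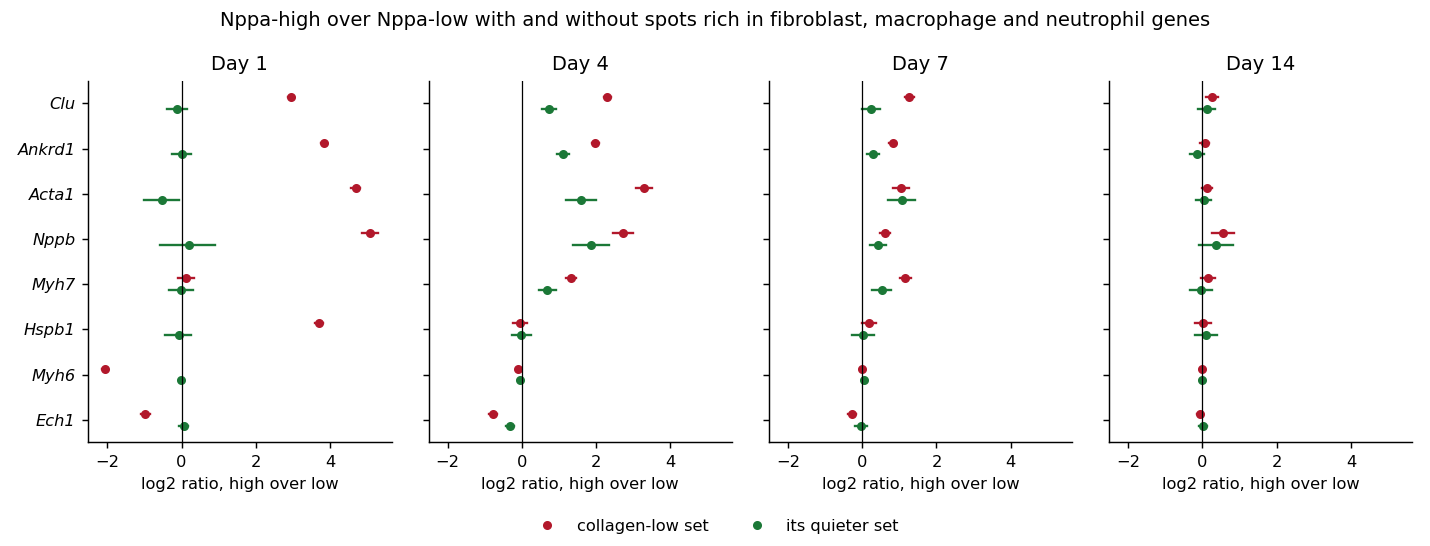
Log2 ratio of CPM, Nppa-high over Nppa-low spots (x axis), for 8 genes (y axis) in the 4 sections (panels), in the whole collagen-low set (red) and in its quieter set by fibroblast, macrophage and neutrophil genes (green); bars are exact 95% intervals for counting error only. The green points lie near 0 on day 1, apart from Acta1, and to the right of 0 for Clu, Ankrd1, Acta1, Nppb and Myh7 on day 4.

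The only test that the design allows over samples asks what the 4 sections share. UMIs were summed per section and class, and edgeR's quasi-likelihood test with the section as a block was run on 8265 genes, which left no gene past an adjusted p of 0.05 in either direction (0%). At an unadjusted p under 0.05 there were 571 genes, 368 higher and 203 lower, which is 6.91% of those tested, and the lowest adjusted p was 0.684. DESeq2 on the same sums called 2 genes higher and none lower, and these were Clu and Gdf15. The spread that entered the test was that between days, which differed as described above.

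The fitted values of the stress genes carried this spread. Clu had a log2 fold change of 1.56 (SE 0.37) with an adjusted p of 0.691 in edgeR and 0.0121 in DESeq2. Gdf15, a cytokine of stressed cells that was named after its values were seen, had 2.94 (SE 0.55) with an adjusted p of 0.684 in edgeR and 0.00414 in DESeq2. Its counts were low, with 74 UMIs in Nppa-high against 10 in Nppa-low spots, 14 against 14, 14 against 13 and 2 against 6 on days 1, 4, 7 and 14. In levels this was 128.5 against 3.28 CPM, 16.7 against 3.43, 24.7 against 5.40 and 2.17 against 1.31, and the interval lay above 0 on days 1, 4 and 7. Acta1 had 2.13 (SE 0.70), Nppb 2.02 (SE 0.72) and Ankrd1 1.503 (SE 0.52). All 19 tested genes of the stress list had a fold change above 0, with a median of 0.89 against 0.01 over all genes, and none was called. All 19 tested genes of the fatty acid list lay below 0, with a median of -0.57, and none was called. Both lists were chosen with earlier results of these data known, so these counts are not independent support.

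Calls appeared when the day 1 section was left out. The fit of days 4, 7 and 14 called 17 genes higher and 2 lower, chosen here after their values were seen. They included Gdf15 (log2 fold change 1.95, SE 0.40) and Postn, the periostin gene of activated fibroblasts (log2 fold change 0.96, SE 0.16), the complement genes C3 (0.68, SE 0.12) and C1qc (0.83, SE 0.15), Apoe (0.47, SE 0.10), Igfbp7 (0.49, SE 0.10) and Wfdc17 (0.97, SE 0.16). The muscle gene Myl1, a myosin light chain of fast muscle and of the embryonic heart, was also among them (0.58, SE 0.12). Leaving out any other section gave no call. The macrophage and matrix sums given above for days 4 and 7 moved with these calls, and their part in them was not tested.

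Myl1, like Acta1, is also expressed in skeletal muscle, whose fast-type genes were at 104 against 91.0 CPM on day 7 and near 0 otherwise. Myl1 was at 104 CPM in Nppa-high against 78.3 in Nppa-low spots, at 86.9 against 60.4, at 118 against 57.3 and at 132 against 96.2 on days 1, 4, 7 and 14. In the quieter set it was 1 of 3 genes that passed the test over all 4 sections, with a log2 fold change of 0.71 (SE 0.15, adjusted p 0.0205 in edgeR). The others were Bc1, a small brain-type RNA gene, at 0.33 (SE 0.07) and the immunoglobulin gene Igkc, which was lower at -3.19 (SE 0.53).

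The same contrast was computed in the collagen-high set, with Nppa ranked within it. There Clu was at 5232 CPM in Nppa-high against 1476 in Nppa-low spots, 10796 against 2292, 12091 against 1699 and 2075 against 508 on days 1, 4, 7 and 14. Myh7 was at 1040 against 333, 2658 against 382, 5324 against 788 and 1731 against 390. The contrast of both genes was thus present on day 14 in the collagen-high set, where Nppa-high spots held 5479 Nppa UMIs per 1000000. On that day the median depth in this set was 2407 UMIs in Nppa-high against 7561 in Nppa-low spots. On days 1, 4 and 7 its Nppa-high spots were the deeper ones. The part of depth in this contrast was not tested. Not all stress genes were higher throughout the collagen-high set. Acta1 was lower in its Nppa-high spots on day 7, at 1707 against 6220 CPM, and higher on days 1, 4 and 14. Nppb and Ankrd1 were higher there in all 4 sections.

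The difference between the sets was tested as an interaction over 16 sums, and no gene of 10606 passed in edgeR (0%), with 426 genes at an unadjusted p under 0.05. Myh7 had the difference of -1.67 (SE 0.45, adjusted p 0.747), from a log2 fold change of 0.53 in the collagen-low and 2.20 in the collagen-high set. For the collagen-high set, the same fit of 16 sums called 8 genes higher and 12 lower. Its spread was estimated over both sets together. Section entered only as a shared level, so the sums of 1 mouse otherwise counted as independent. The p-values of this fit, also for the difference, thus do not measure the spread between mice alone. The count of calls is therefore not comparable with that of the collagen-low set above, which came from a fit of 8 sums. Myh7 (adjusted p 0.00622), Clu (0.0169) and Gdf15 (0.00835) were among the higher and skeletal muscle genes such as Myh2 (0.00555) among the lower. Leaving out spots rich in skeletal muscle genes changed the classes of the day 7 section only. Whether the skeletal muscle calls rest on that section was not tested. For Lyz2 the difference was 1.52 (SE 0.55, adjusted p 1.00), as it was lower in Nppa-high spots of the collagen-high set on days 4 and 7, at 1703 against 4651 and 1051 against 2382 CPM. For Clu it was -0.67 (SE 0.53) and for Ankrd1 -0.30 (SE 0.56), both with an adjusted p of 1.00. None of these contrasts was shown to be particular to the collagen-low set.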

How the data were processed

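The submitters' processing notes name Space Ranger 1.3.0, the mm10 genome and Seurat 4.1.1. The authors deposited, for each section, raw UMI counts per gene and spot (32285 genes), and the feature and barcode lists among the deposited files hold names and were used only as such (unit other). In the study's own analysis, spots with over 1% hemoglobin transcripts and manually chosen edge spots were removed and genes under 1000 UMIs were ignored. Neither images nor positions on the slide entered the work here, and edge spots remained. Kept spots had median depths of 5220 to 8805 UMIs.

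UMIs were summed per section and Nppa class. Spots of 1 section are not replicates, so a single day has no test. Its CPM levels use plain totals, a fold is given only above 3 UMIs in both classes, and exact 95% intervals cover counting error only. Across sections, genes with 100 or more UMIs were tested with edgeR 4.0.16 (TMM, quasi-likelihood, section as a block, 8 sums, Benjamini-Hochberg), and DESeq2 1.42.0 was an alternative. The script was tested on simulated data. The p-values of the fit of 8 sums measure the spread between 4 mice of different days. In the fit of 16 sums, the sums of 1 mouse also counted as independent apart from a shared section level.

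The spot rule, the 24 gene lists and the named genes were chosen with earlier results of these data known. Named genes were members of these lists, and genes outside them (Gdf15, Myl1, Bc1, Igkc, Postn where called without day 1, C3, C1qc, Apoe, Igfbp7, Wfdc17, Rcan1, Fhl1) were named after their values were seen. Alternatives changed the Nppa, collagen, hemoglobin and UMI limits, the handling of ties, the scaling, the tool and the sections included.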

Additional observations from a re-analysis of the deposited data

Results flagged for a closer look

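In 14 of 56 genes examined, the day 1 section lay far from the other 3 sections in its log2 ratio of Nppa-high over Nppa-low spots, with a gap above the 95% limit of Dixon's test. Chance alone gives such a gap in about 1 of 20 groups, and the genes are not independent since all share the same spots. The ratio of day 1 stood far above the others for Timp1 (5.22), Ccn2 (4.09), Hspb1 (3.71), Rcan1 (3.58), Fhl1 (3.50), Xirp2 (3.32), Flnc (3.13) and Cryab (2.25). It stood far below them for Kcnip2 (-2.63), Tcap (-2.53), Myh6 (-2.07), Slc2a4 (-1.95), Fabp3 (-1.76) and Pln (-1.52). Clu, Ankrd1, Acta1 and Nppb were not among these genes, as day 4 lay between day 1 and the later days.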

How the results depend on the processing

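With 1 mouse a day, no value of a single day has replicate error. On day 14 the median Nppa-high spot held only 1 Nppa UMI, at a median depth of 9035 UMIs. The 4-section test was decided by the sections included. Leaving out 1 section gave 0 to 17 genes higher and 0 to 2 lower, and for the difference between the sets 0 to 3 higher, in each case with calls only without day 1. DESeq2 called 2 higher. Days 1 and 4 only, added after seeing the data, gave 81 higher and 13 lower. Without a collagen threshold the test called 1254 higher and 1196 lower, and the counts of genes 2-fold higher in a section were 694, 796, 336 and 226 on days 1, 4, 7 and 14, with 108, 72 and 14 lower on days 4, 7 and 14. In the quieter set, also added after seeing the data, the test called 2 higher and 1 lower, the section counts were 0 and 0 on day 1, 2 and 2 on day 4 and 1 and 3 on day 7, and the day 1 ratio turned for Clu (-0.12), Acta1 (-0.52) and Hspb1 (-0.0813). The cause was not tested.

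The other section counts that moved by over 1.5 times, given as higher and lower, were as follows. TMM factors gave 201 and 410 on day 1, 13 and 3 on day 4 and 3 higher on day 7. The top 20% by Nppa gave 224 and 19 on day 1, 10 and 0 on day 4 and 0 and 0 on day 7. The top 5% gave 10 lower on day 4, 5 lower on day 7 and 2 and 7 on day 14. The lowest 25% by collagen gave 132 and 38 on day 1, 6 and 0 on day 4 and 0 and 0 on day 7. Spots of at least 2000 UMIs gave 3 lower on day 4 and 2 and 0 on day 7. Hemoglobin of at most 0.5% gave 3 lower on day 4 and 8 and 0 on day 7, and no hemoglobin filter gave 53 and 8 on day 4 and 1 lower on day 14. Ties put in the Nppa-low class gave 2 lower on day 7 and 5 lower on day 14, and leaving out skeletal muscle spots gave 2 and 0 on day 7. For single genes, 1681 values were counted as unchanged, 127 moved and 68 passed the test that had not. The 3 named above turned from a value whose interval excluded 0. A value of a single section counted as unchanged if it stayed within its counting interval. A fitted value counted so whenever it did not newly pass the test, whatever its size or sign. The fitted value of Clu, for example, ran from 0.26 to 2.71 over the alternatives. Counting every change of sign, also of values that had passed no test or whose interval included 0, 21 of 1422 values fitted over sections and 20 of 457 values of single sections had the opposite sign.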
